A study of Mus musculus with 4 samples.

Results

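The genes described here are 40 regulators and markers of lineages that embryonic stem cells can enter. They comprise 11 genes of primitive, visceral and definitive endoderm (Gata6, Gata4, Sox7, Sox17, Dab2, Hnf4a, Foxa1, Amn, Cubn, Lrp2 and Pdgfra), 13 neural genes (Pax6, Sox1, Nes, Hes5, Neurog2, Pax3, Zic1, Six3, Hesx1, Gbx2, Dll1, Sox21 and Lhx2) and 16 trophoblast genes (Cdx2, Elf5, Krt7, Krt8, Krt18, Hand1, Gata2, Gata3, Tfap2a, Tfap2c, Ascl2, Plac1, Esx1, Tead4, Dlx3 and Phlda2). They were given as gene symbols and found on the array through the platform annotation. All 40 were measured, out of 22180 genes with a probe set of their own, and the brightest probe set stands for a gene with several.

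The cells were R1, a mouse embryonic stem cell line, depleted of feeder cells and grown without LIF in bacteriological dishes for 18 h, where they form embryoid bodies. All 4 groups shared this culture. They received EB medium alone, DMSO (the solvent), 1.88 µM GSK-J5 or 1.88 µM GSK-J4, and each treatment has 1 array of total RNA from dissociated embryoid bodies. GSK-J4 is an ester that enters cells and releases an inhibitor of the KDM6 demethylases, which remove the PRC2 mark from histone H3; GSK-J5 is the ester of an isomer with little activity on these enzymes. With 1 array per treatment no difference below has a replicate check or a p-value, the number of arrays limits the precision, and medium, DMSO and GSK-J5 together serve as 3 controls.

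Lineage choice in the early embryo is set by transcription factors that activate one programme and hold back others. GATA6 and GATA4, then SOX7 and SOX17, direct primitive endoderm, which matures into visceral endoderm with its endocytic receptors. SOX1 and PAX6 mark early neural cells, and TEAD4 acts upstream of CDX2 in trophoblast, a lineage that embryonic stem cells rarely enter. In stem cells many such regulators have CpG-rich promoters that carry the PRC2 mark together with an activating mark, and are held at low levels.

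The pluripotency markers fitted the labelled cell type. Of 12 such markers 11 lay past the filter described below, and Nanog read 13.14 (medium), 13.20 (DMSO), 13.11 (GSK-J5) and 13.05 (GSK-J4) on the log2 scale. Dppa5a was the marker under the filter, with a mean of 6.46. Of 12 feeder fibroblast markers 7 (58.3%) were past the filter, near the 60% of all genes that pass it by construction. The median level of the feeder list was 6.88, 7.13, 7.12 and 6.77 in the same order of arrays. It was thus lowest in GSK-J4, with 8 of the 12 below all controls and 1 above, beside 36.3% and 30.6% of all genes. Of the 12 pluripotency markers 6 lay below all controls and 2 above. The part of feeder RNA in the results below was not tested. In these bulk samples fewer cells of a lineage and less RNA per cell cannot be told apart.

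Promoter sequences are printed for the 4 genes on which the comparison with GSK-J4 turns: Phlda2, the one gene counted as lower, Gbx2, just short of being counted, and Krt7 and Lrp2, next in size on the low and the high side. Each run is the 250 bases before the transcription start, 5′ to 3′ on the gene's strand, from RefSeq on GRCm38.p6, and capitals mark CpG dinucleotides. They lie at chr7:143502525-143502774 (Phlda2, minus strand), chr1:89931177-89931426 (Gbx2, minus), chr2:69586030-69586279 (Lrp2, minus) and chr15:101412153-101412402 (Krt7, plus). These positions belong to the RefSeq table and not to the array's own annotation.
Phlda2: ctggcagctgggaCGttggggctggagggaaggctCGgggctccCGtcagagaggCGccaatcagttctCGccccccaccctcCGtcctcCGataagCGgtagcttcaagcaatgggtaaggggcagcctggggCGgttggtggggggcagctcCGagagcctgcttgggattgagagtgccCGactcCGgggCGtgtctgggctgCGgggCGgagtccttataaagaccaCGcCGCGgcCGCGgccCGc
Gbx2: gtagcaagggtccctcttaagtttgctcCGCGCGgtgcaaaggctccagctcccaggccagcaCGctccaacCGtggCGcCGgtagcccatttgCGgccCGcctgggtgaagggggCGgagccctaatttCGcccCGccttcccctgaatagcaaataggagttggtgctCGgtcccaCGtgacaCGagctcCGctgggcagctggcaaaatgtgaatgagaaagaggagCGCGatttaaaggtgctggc
Lrp2: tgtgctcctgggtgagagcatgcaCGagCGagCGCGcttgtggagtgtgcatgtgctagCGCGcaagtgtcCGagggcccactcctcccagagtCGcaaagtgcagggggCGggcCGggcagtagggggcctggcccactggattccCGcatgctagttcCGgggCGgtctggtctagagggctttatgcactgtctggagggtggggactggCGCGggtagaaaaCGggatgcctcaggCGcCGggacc
Krt7: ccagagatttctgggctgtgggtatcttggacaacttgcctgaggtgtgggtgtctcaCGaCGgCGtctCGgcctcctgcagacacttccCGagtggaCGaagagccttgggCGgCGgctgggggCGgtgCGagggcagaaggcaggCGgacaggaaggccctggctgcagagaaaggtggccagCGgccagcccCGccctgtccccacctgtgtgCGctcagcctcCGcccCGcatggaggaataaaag

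CpG dinucleotides numbered 21 in the Phlda2 window, 18 in Gbx2, 18 in Lrp2 and 16 in Krt7. Among the 27025 genes of the promoter table the median was 6.0, so all 4 windows held more CpGs than the typical gene. The Phlda2 window also holds TATAAA, starting 30 bases before the transcription start. Searched on both strands, TATAAA was found in 1 of the 31 members with a promoter entry and in 12.5% of all genes in the table. Within the last 50 bases on the gene's strand, the shares were 3.23% of these members and 2.86% of all genes. A match is a description of letters and not of a bound site.

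CpG-rich windows were more frequent among the members with an entry than among all genes in the promoter table, and most frequent in neural genes. For a gene with several starts the window with the most CpGs was used. Of the 31 with an entry, 18 (58.1%) had a CpG-rich window, defined as at least 55% G and C with at least 0.6 of the CpGs expected from base composition, against 29.8% of all genes in the table. By lineage these were 10 of 12 neural, 3 of 7 endoderm and 5 of 12 trophoblast genes. Of the 4 printed windows that of Krt7 fell just short of this definition. Hes5 held the most CpGs, 32, and Cubn and Hesx1 the fewest, 2 each. Members past the filter had a CpG-rich window in 16 of 21 cases and those under it in 2 of 10. This split was not made for all genes, so it is not shown to be particular to the members. The probe composition of the array was not used here, and its part in this was not tested. Gata6, Gata4, Sox7, Sox17, Pax3, Hand1, Tfap2c, Tead4 and Dlx3 had no entry.

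**Figure D1:**
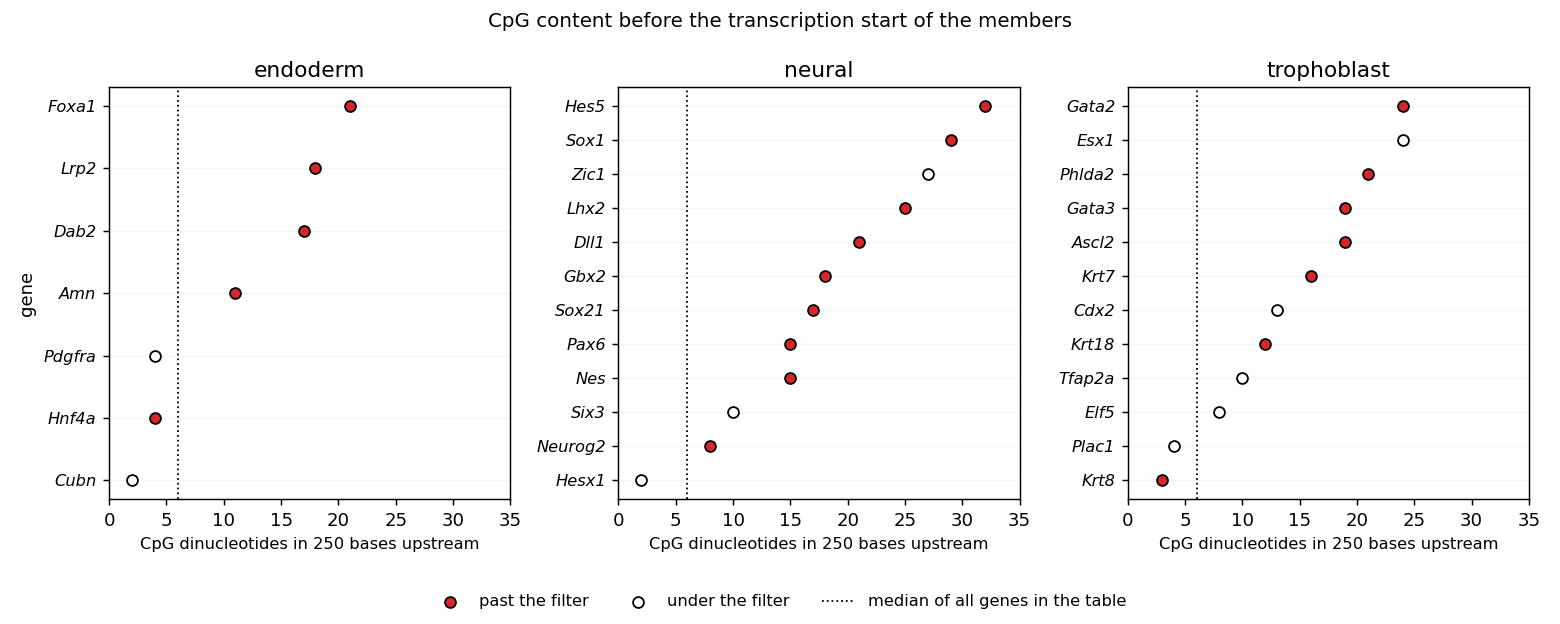
CpG dinucleotides (x axis, count in the 250 bases before the transcription start) for the 31 members in the promoter table, by lineage. Filled points are genes past the expression filter, open points genes under it, and the dotted line is the median of all genes in the table, 6.0; most neural genes lie well to its right.

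Which lineage genes gave a signal at 18 h was read from a filter: the mean of a gene over the 4 arrays had to reach 6.59, the 40th percentile of all 22180 genes. By construction 60% of all genes pass. Of the 40 members 27 (67.5%) passed, a share near this background: 6 of 11 endoderm, 10 of 13 neural and 11 of 16 trophoblast genes. Passing does not show that a gene is above the array's background, since scanner files were not used here and probe sets differ in brightness for reasons other than transcript level.

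As a gauge of low signal, the 1105 olfactory receptor genes, a family that few cells outside the nose use, had a median level of 4.21. The 95th percentile of their means was 6.34, a threshold chosen after the data were seen, and 34 of the 40 members lay past it. Under it were Sox17, Cubn, Zic1, Elf5, Tfap2a and Plac1. The 40 members crowd near the filter: with the 50th percentile in its place 14 passed, and with the 60th percentile 8, namely Lrp2, Pax6, Gbx2, Krt8, Krt18, Tfap2c, Tead4 and Phlda2.

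At the filter itself, Gata6 (mean 6.51) and Cdx2 (6.52), the master regulators of primitive endoderm and of trophoblast, lay 0.07 below the level. The next members outside were Pdgfra (6.37) in endoderm, Six3 (6.40) and Hesx1 (6.36) in neural and Esx1 (6.35) in trophoblast. The 2 nearest inside per lineage were Lhx2 (6.88), Gata2 (6.90), Amn (6.91), Krt7 (6.93), Pax3 (6.96) and Foxa1 (7.03). No member had a mean between 6.52 and 6.88.

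**Figure D2:**
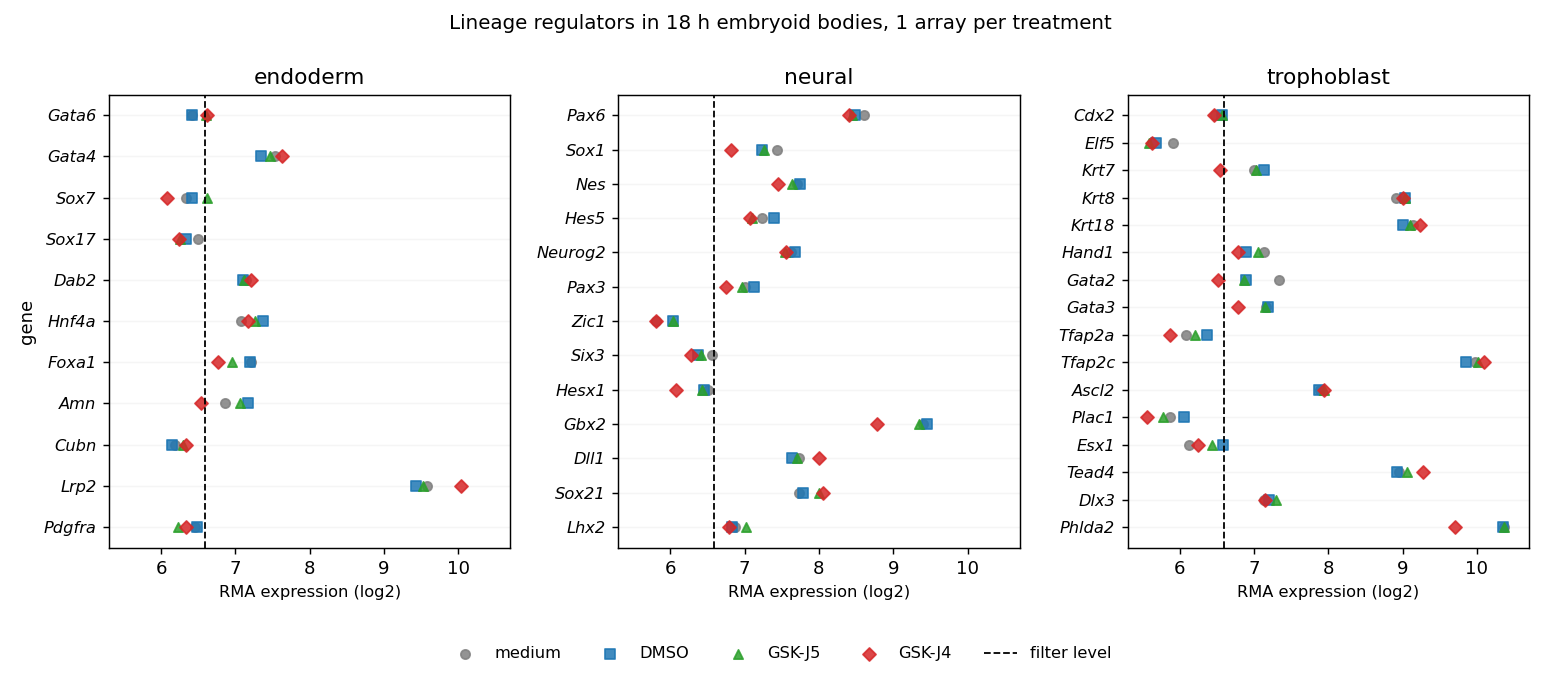
RMA expression (x axis, log2) of the 40 members (y axis) by lineage, with 1 point per array: medium, DMSO, GSK-J5 and GSK-J4. The dashed line is the filter level of 6.59; 27 genes have a mean to its right, and the 4 points of a gene mostly lie close together.

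Set against the controls, 1 of the lineage regulators differed by 1.5-fold in GSK-J4, and smaller differences lay more often on the low side. A gene was counted as higher or lower when GSK-J4 lay at least 1.5-fold, 0.585 on the log2 scale, beyond the highest or lowest of the 3 controls; this distance to the nearest control is the margin. Phlda2 was the 1 member counted as lower, and 0 were counted as higher. Over the 13308 genes past the filter 0.842% were lower and 2.21% higher, so 1 of 27 lower and 0 of 27 higher lie near that background. At 1.3-fold 4 members were lower (Phlda2, Gbx2, Krt7 and Sox1), against 2.92% of all genes, and Lrp2 was higher, against 5.67%. At 2-fold 0 members were counted, against 0.105% of genes lower and 0.571% higher.

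Without a size threshold, 21 of the 40 members (52.5%) lay below all 3 controls, 10 above and 9 within. Over all genes 36.3% lay below and 30.6% above. Among genes past the filter these shares were 35.5% and 38%, beside 14 and 8 of 27 members; among genes under it they were 37.4% and 19.4%, beside 7 and 2 of 13. The low side held 9 of 13 neural, 8 of 16 trophoblast and 4 of 11 endoderm genes, and the high side 2, 3 and 5. Feeder fibroblast markers, at 8 of 12 below, had a share like that of the neural genes. A stricter reading asks whether the margin exceeded the range of the 3 controls: 9 members were lower by this measure and 4 higher, against 15.6% and 15.2% of all genes.

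At the matched dose, GSK-J4 minus GSK-J5 had a median of −0.12 over the 40 members, beside −0.02 over all genes. It was −0.19 for neural, −0.17 for trophoblast and 0.02 for endoderm genes; the endoderm value turned to −0.09 against DMSO, so its sign depends on the control. Between GSK-J5 and DMSO the medians were −0.03, 0.00 and 0.01 for the same 3 groups. These comparisons share control arrays. The range of the 3 controls had a median of 0.17 over the members, the size against which single differences can be read.

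**Figure D3:**
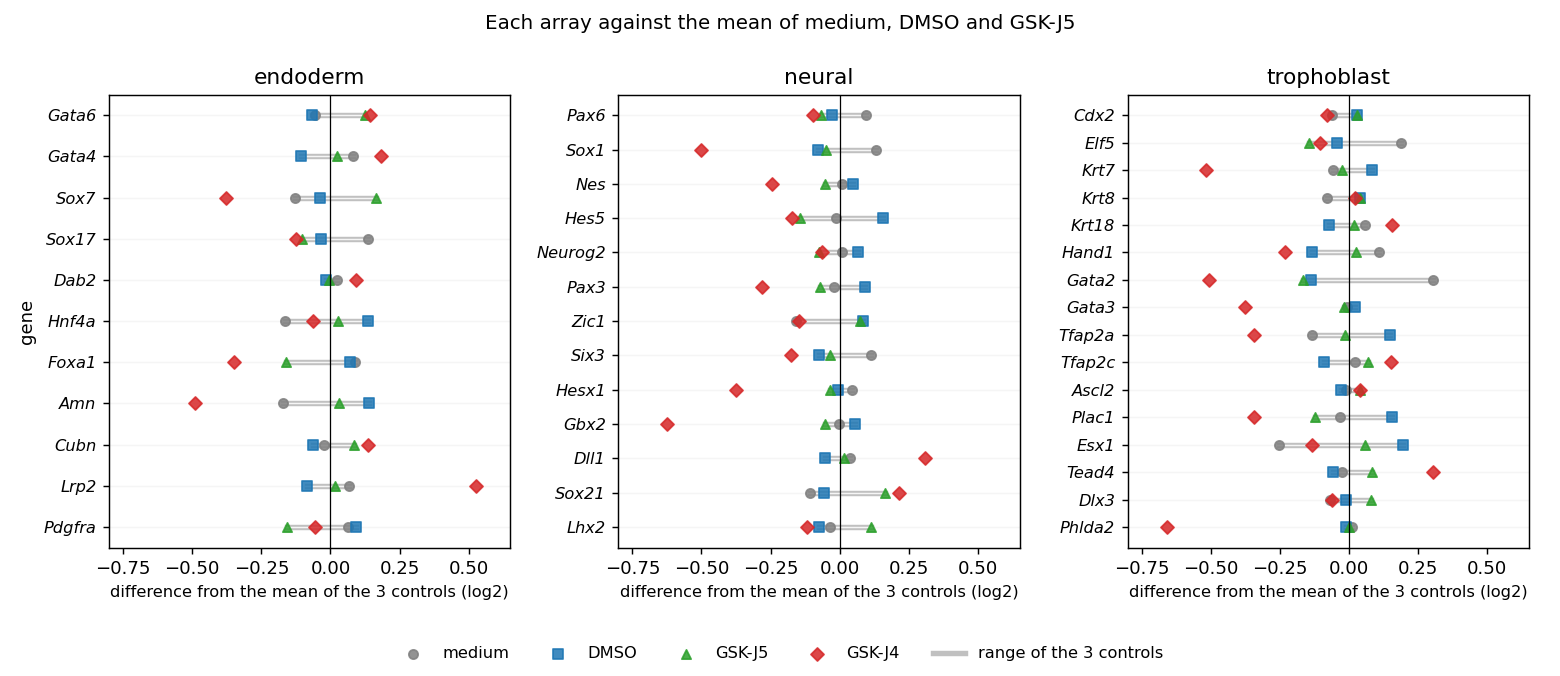
Difference of each array from the mean of the 3 controls (x axis, log2) for the 40 members (y axis), by lineage. Grey bars span the 3 controls and red diamonds are GSK-J4; Phlda2, Gbx2, Krt7 and Sox1 lie farthest to the left of their bars and Lrp2 farthest to the right.

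Each control array was also put in the place of GSK-J4, which was then among the 3 arrays it was set against. A control could thus not be lowest in the 21 members where GSK-J4 was lowest. Nor could it be highest in the 10 where GSK-J4 was highest. The control counts are in part fixed by this and are not an independent gauge of noise. By at least 0.2, a size chosen after the data were seen, GSK-J4 lay below the 3 other arrays in 12 members and above them in 3. The medium array lay above the others in 2 members and below in 0, DMSO in 0 and 0, and GSK-J5 in 1 and 0. Over all genes the shares above and below were 2.51% and 2.66% with medium in that place, 3.05% and 2.5% with DMSO, and 3.18% and 2.06% with GSK-J5. For GSK-J4 they were 10.9% and 10.5%, beside 3 and 12 of the 40 members, so at this cutoff the members exceeded the background share on the low side. Of these 12, Sox7, Hesx1, Tfap2a and Plac1 were under the filter, and Gbx2 and Gata3 fell short of 0.2 on their other probe set. After quantile normalization the margins of Sox7, Pax3, Tfap2a and Plac1 were −0.19, −0.15, −0.15 and −0.13, while Nes reached −0.21. On the high side Tead4 was then at 0.14. For the medium array the farthest member was Gata2, 0.44 above the rest.

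**Figure D4:**
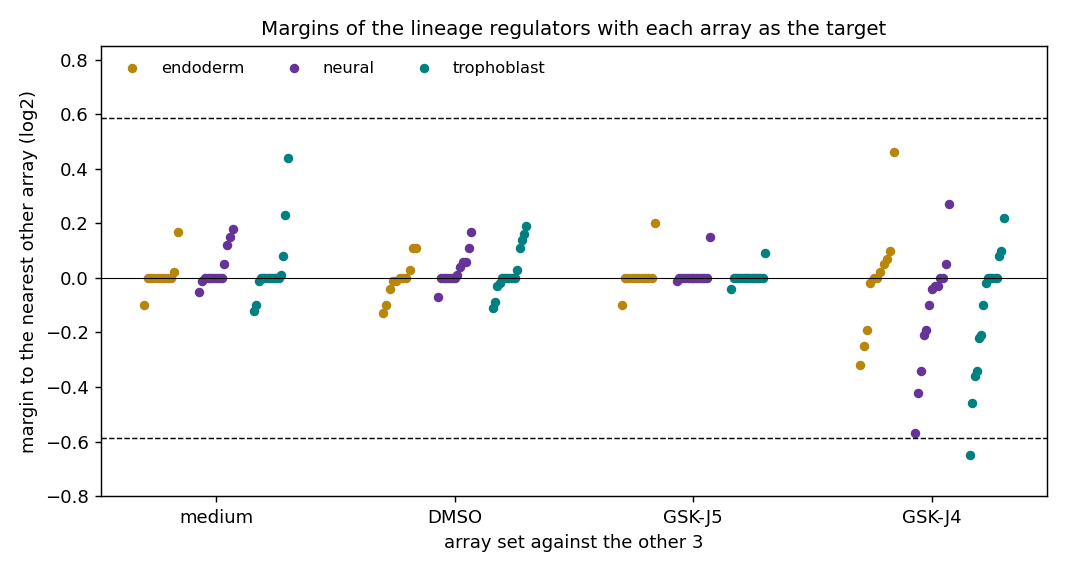
Margin to the nearest other array (y axis, log2) when each array in turn (x axis) is set against the other 3; each point is a member, coloured by lineage, and dashed lines mark 1.5-fold. Under GSK-J4 the points reach from −0.65 to 0.46, while under the controls they stay between −0.13 and 0.44. For each control the other 3 arrays include GSK-J4, which in part fixes the control margins.

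For the endoderm transcription factors Gata4 and Gata6, GSK-J4 lay within 0.10 of the nearest control. Gata4, a zinc-finger factor that acts with Gata6, read 7.53 in medium, 7.34 in DMSO, 7.47 in GSK-J5 and 7.63 in GSK-J4. Gata6 read 6.42, 6.41, 6.60 and 6.62 in that order, which is also used for the values below. Both were highest in GSK-J4, but by 0.10 and 0.02, less than the range of their controls (0.19 each).

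Hnf4a, the nuclear receptor of visceral endoderm and liver, read 7.07, 7.37, 7.26 and 7.17, with GSK-J4 inside the controls. Foxa1, a forkhead factor that opens chromatin, read 7.21, 7.19, 6.96 and 6.77. GSK-J4 was lowest for Foxa1 by 0.19, while GSK-J5 was itself 0.23 below DMSO. Sox7, an SRY-box factor of primitive endoderm under the filter, read 6.33, 6.42, 6.62 and 6.08; the controls spanned 0.29, more than its margin of −0.25. Sox17, its relative and also under the filter, had a margin of −0.02.

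The endocytic genes of visceral endoderm did not move together. Lrp2 encodes megalin, a large scavenger receptor, and read 9.58, 9.43, 9.53 and 10.04. GSK-J4 stood 0.46 (1.38-fold) above the nearest of controls that spanned 0.15. Amn encodes amnionless, which carries cubilin to the membrane, and read 6.86, 7.17, 7.06 and 6.54. It was lowest in GSK-J4 by 0.32 (1.25-fold), about the width of its control range of 0.31, and its GSK-J4 value lies under the filter level, so the size is not exact.

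Dab2, the adaptor that links such receptors to clathrin, read 7.14, 7.10, 7.11 and 7.21, a margin of 0.07 over a control range of 0.04. Cubn, the receptor partner of Amn, was under the filter with a margin of 0.05. Pdgfra, an early surface marker of primitive endoderm, read 6.45, 6.48, 6.23 and 6.33, within its controls. The megalin gene was thus the one endoderm member at least 0.2 above all controls, and Amn and Sox7 were those at least 0.2 below.

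Of the 13 neural genes 0 were counted in either direction at 1.5-fold. In 9 of them GSK-J4 lay below all controls by some amount, against 36.3% of all genes. In 5 (Sox1, Nes, Pax3, Hesx1 and Gbx2) the margin exceeded the range of the controls, which is 38.5% against 15.6% of all genes, and in Pax6, Hes5, Lhx2 and Six3 it did not. Gbx2 encodes a homeobox factor of the anterior hindbrain that stem cells also express. Its brightest probe set read 9.40, 9.46, 9.35 and 8.78, a margin of −0.57 (1.48-fold), just short of 1.5-fold. The other Gbx2 probe set read 7.96, 7.95, 8.00 and 7.91, a margin of −0.04, so the difference rests on 1 of 2 probe sets.

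Sox1, one of the earliest neuroectoderm factors, read 7.44, 7.23, 7.26 and 6.81. Its margin was −0.42 (1.34-fold), beyond the control range of 0.21. Nes, the intermediate filament nestin of neural progenitors, read 7.70, 7.74, 7.64 and 7.45, a margin of −0.19 over a range of 0.10. Pax6, a paired-box factor of forebrain and eye, read 8.60, 8.48, 8.44 and 8.41. Its GSK-J4 value was 0.03 below GSK-J5, so these 2 early neural factors differed unequally.

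Pax3, a factor of dorsal neural tube and neural crest, read 7.01, 7.12, 6.96 and 6.75 (margin −0.21). Hesx1, a forebrain and pituitary homeobox gene under the filter, read 6.50, 6.45, 6.42 and 6.08 (margin −0.34). Both lay below controls that spanned 0.16 and 0.08. Six3, another forebrain homeobox gene, read 6.56, 6.37, 6.41 and 6.27, and Lhx2, a LIM-homeobox gene of forebrain and eye, 6.87, 6.83, 7.02 and 6.79. Their margins of −0.10 and −0.04 were smaller than their control ranges of 0.19. Zic1, a zinc-finger gene and the last of the patterning factors, was under the filter with GSK-J4 inside the controls.

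Genes of Notch signalling and neurogenesis showed no common direction. Dll1, a Notch ligand, read 7.73, 7.64, 7.71 and 8.00, with GSK-J4 0.27 above controls that spanned 0.09. Its other probe set, with a mean of 6.53, had a margin of −0.14, so the probe sets disagree in sign. Hes5, a Notch effector, read 7.23, 7.40, 7.10 and 7.07, and Neurog2, a proneural factor, 7.62, 7.68, 7.54 and 7.55. GSK-J4 and GSK-J5 were within 0.03 of each other for both, though the other Hes5 probe set had a margin of −0.16. Sox21, a repressor that promotes neuronal differentiation, read 7.73, 7.78, 8.00 and 8.05; GSK-J4 and GSK-J5 were again close, both lay above medium and DMSO, and on the other Sox21 probe set GSK-J4 lay within the controls.

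Among trophoblast genes Phlda2 stood out. This imprinted gene, expressed from the maternal copy, restrains placental growth; it read 10.37, 10.35, 10.36 and 9.70. The 3 controls spanned 0.02 and GSK-J4 lay 0.65 (1.57-fold) below them. Over the deposited values and the 3 other scalings the margin was −0.65 to −0.70, and Gbx2 reached −0.65 under quantile normalization and was then counted too. Plac1, a placental gene of the X chromosome under the filter, read 5.87, 6.06, 5.78 and 5.56, a margin of −0.22 over a control range of 0.28.

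The simple epithelial keratins differed from one another. Krt7 read 7.00, 7.14, 7.03 and 6.54, a margin of −0.46 (1.38-fold) over a control range of 0.14, and its GSK-J4 value is under the filter level. Krt8 read 8.91, 9.03, 9.03 and 9.01, within its controls. Krt18, which pairs with Krt8 in filaments, read 9.14, 9.01, 9.10 and 9.24. The margin of Krt18 was 0.10, and 0.20 for its other probe set, so the low Krt7 value was not shared by this pair.

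Neither trophoblast GATA factor was counted, though GSK-J4 had the lowest reading for both. Gata3, which acts beside Cdx2, read 7.16, 7.19, 7.15 and 6.79, a margin of −0.36 over a control range of 0.04; its other probe set had a margin of −0.12. Gata2 read 7.33, 6.89, 6.86 and 6.52. Its margin was −0.34, but medium alone was 0.44 above DMSO, a spread wider than the margin. Hand1, a factor of trophoblast giant cells, read 7.13, 6.89, 7.05 and 6.79, with a margin of −0.10 inside the spread of its controls.

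Of 11 trophoblast transcription factors 5 lay below all controls, 2 above and 4 within, beside 36.3% of all genes below and 30.6% above. The 2 factors above were Tead4 and Tfap2c. Tead4, a DNA-binding partner of the YAP and TAZ coactivators, read 8.95, 8.92, 9.06 and 9.28, 0.22 above controls that spanned 0.14. Cdx2 read 6.48, 6.57, 6.57 and 6.46. Tfap2c, an AP-2 factor of trophoblast and germ cells, read 9.97, 9.86, 10.02 and 10.10. Tead4 and Tfap2c were highest in GSK-J4 and Cdx2 lowest, by 0.08 for Tfap2c and 0.02 for Cdx2, less than their control ranges.

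Tfap2a, an AP-2 factor under the filter, read 6.08, 6.36, 6.20 and 5.87 (margin −0.21, control range 0.28). Ascl2, an imprinted factor of spongiotrophoblast, read 7.89, 7.87, 7.94 and 7.94, and Dlx3, a homeobox gene of the placental labyrinth, 7.14, 7.20, 7.29 and 7.15. GSK-J4 lay within the controls for Ascl2 and Dlx3. Esx1, an X-linked placental homeobox gene, read 6.13, 6.58, 6.44 and 6.25, and Elf5, a trophoblast stem cell factor under the filter, was likewise inside its controls.

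Further genes of the same lineages, from lists chosen with earlier results of these data known, were set beside the members; some are on more than 1 list. Of 30 measured further endoderm genes 24 passed the filter, with 1 counted as higher and 0 as lower. Of 33 further neural genes 24 passed, with 0 higher and 3 lower, and of 25 further trophoblast genes 22 passed, with 1 higher and 1 lower. Over all genes 60% passed the filter, and of these 2.21% were higher and 0.842% lower. The medians of GSK-J4 minus GSK-J5 were −0.14, −0.22 and −0.19. Genes below the controls by more than the controls' range numbered 15 of 33 (45.5%) on the neural list, 8 of 25 (32%) on the trophoblast list and 6 of 30 (20%) on the endoderm list, against 15.6% of all genes. Above the controls by this measure were 4 neural (12.1%), 2 trophoblast (8%) and 6 endoderm genes (20%), against 15.2% of all genes. The endoderm list thus held as many genes above as below.

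The counted neural genes were Hes3, a repressor that holds neural progenitors, Pou3f1, a POU factor of epiblast and early neural cells, and Zic5, a zinc-finger factor. Hes3 read 7.01, 6.94, 6.85 and 5.86, a margin of −0.99 (1.99-fold), with a GSK-J4 value under the filter level. Its mean of 6.66 is close to the filter, and it was not counted with the medium or the DMSO array left out or with a filter at the 60th percentile. Pou3f1 had a margin of −0.79. Zic5 read 10.38, 10.42, 10.35 and 9.76, a margin of −0.59 that sits on the 1.5-fold line and was not counted after median centring or with the median over its probe sets.

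In trophoblast, Eomes, a T-box factor shared with mesendoderm, had a margin of −0.60 and was not counted with a filter at the 60th percentile, and Wwtr1, which encodes the coactivator TAZ, read 8.53, 8.55, 8.47 and 9.42. The Wwtr1 margin of 0.87 (1.83-fold) lay on the same side as that of Tead4. Yap1, the gene of the YAP coactivator on the same list, lay on the other side. It read 11.26, 11.23, 11.25 and 11.19, a margin of −0.04. Grb10, an imprinted adaptor that restrains growth and sits on the endoderm list, read 11.01, 10.87, 11.13 and 11.86, a margin of 0.73 (1.66-fold).

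**Figure D5:**
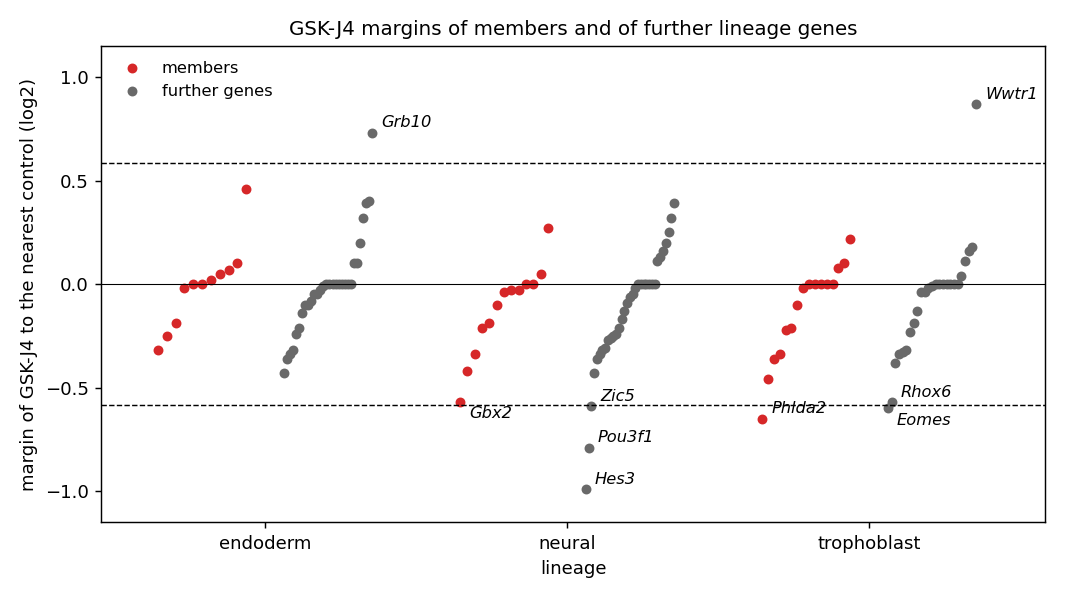
Margin of GSK-J4 to the nearest control (y axis, log2; 0 where GSK-J4 lies within the controls) for the members (red) and the further genes (grey) of each lineage (x axis), with dashed lines at 1.5-fold. The 40 members stay between −0.65 and 0.46, and Wwtr1, Grb10, Hes3 and Pou3f1 lie farther out among the further genes.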

How the data were processed

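The authors deposited log2 values per probe set. Per the submitters' processing notes these came from RMA, run in version 1.2.1.20 of Affymetrix Expression Console. RMA gives the arrays a common distribution of intensities, so a shift of all genes is removed. Base 2 was inferred from the values, which run from 2.20 to 14.48. Array medians over the 41345 probe sets were 6.63 to 6.65. Names came from the platform annotation, which can be old: 23521 probe sets had 1 gene symbol and 1814 several, and 16010 were not listed. Probe sets with several symbols, among them 1 each that includes Pax6 and Gata3, stayed out. None of the 46 member probe sets needed a new symbol when compared with RefSeq (GRCm38.p6).

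Levels, filter, margins and list medians were computed with pandas 2.3.3 and numpy 2.4.6. The counting rule was run on simulated data with changes of 2-fold or more and the same spread for every gene. Smaller differences, such as those of the members, were not covered. The members, lists and rules were chosen with earlier results of these data known. All members are named; values are given for those past the filter, the 2 nearest under it per lineage and those at least 0.2 outside the controls. Of the further genes, up to 4 counted ones per lineage are named, and Yap1 beside Wwtr1. Alternatives were other filters, median centring, quantile normalization, loess (span 0.3), the median over probe sets, folds of 1.3 and 2, other references and leaving out arrays.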

Additional observations from a re-analysis of the deposited data

How the results depend on the processing

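Counts of members past the filter depended on its level. At the 30th percentile all 11 endoderm genes passed; at the 50th 14 members passed (2 endoderm, 6 neural, 6 trophoblast) and at the 60th 8 (1, 2 and 5). The same 27 passed with any 1 array left out.

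The count of lower members was 2 after quantile normalization and after loess, where Gbx2 joined Phlda2 (1 neural gene), 1 to 2 with a control left out (0 to 1 neural, 2 members without GSK-J5), 4 at 1.3-fold (2 neural, 2 trophoblast) and 0 at 2-fold (0 trophoblast). Over all genes past the filter the lower shares were 1.02% after quantile normalization and 0.946% after loess. They were 0.946% to 1.06% with a control left out, 2.92% at 1.3-fold and 0.105% at 2-fold. The count of higher members was 1 at 1.3-fold (1 endoderm gene), against 5.67% of all genes, and otherwise 0. Of the further genes 2 were lower with the 60th percentile filter (0 trophoblast), and with a control left out 1 to 2 trophoblast genes were lower, 2 of them without DMSO. Over all genes the lower shares were 0.845% with that filter and 0.991% without DMSO.

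Neural genes above all controls numbered 1 after quantile normalization and 0 with the median over probe sets, against 2. Asking for at least 0.2 left 3 members above and 12 below, against 10.9% and 10.5% of all genes. By lineage these were endoderm 1 and 2, neural 1 and 4, and trophoblast 1 and 6. The endoderm median was −0.09 with DMSO and −0.06 with the mean of the controls as the reference, the 2 changes of sign among the list medians. Among single members, the margin of Dll1 was 0.27 on its brightest probe set and −0.14 on the other. No paired analysis was possible because each treatment has 1 array and the labels give no replicate numbers. Of the 40 members, 21 lay below all controls after median centring, 17 after quantile normalization and 16 after loess. The neural genes among them numbered 9, 7 and 6. Over all genes 36.3%, 35.3% and 33.7% lay below. Members above all controls numbered 11, 9 and 10, beside 30.4%, 31.7% and 34% of all genes. Under the 3 scalings no member's margin changed from positive to negative or back, though some came to lie within the controls. The members near the filter were not shown to be above background.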
